A study of Mus musculus with 5 samples.

Results

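Lysosomal hydrolases and membrane proteins were followed through 33 genes while mouse bone marrow-derived macrophages became osteoclasts, the multinucleated cells that resorb bone. The genes were chosen by name as enzymes, cofactors, membrane proteins and sorting receptors of the lysosome. No expression value was used to pick a gene, but earlier results of these data were known when the choice was made. A gene was read from a row of the array that names it alone, and from the brightest such row where it had several. All 33 had such a row, out of 22180 genes in all, and all 33 passed the filter on low values, a mean log2 level of 4.89 or more, which 12049 genes passed and which defines a measured gene here. Bone marrow cells of wild-type mice aged 10 weeks were grown on plastic, and the macrophages were kept with 20 ng/ml M-CSF, which sustains macrophages, and 30 ng/ml RANKL, which drives osteoclast formation. RNA was taken at day 0 (macrophages before differentiation), at days 1, 2 and 3 (during differentiation) and at day 5 (labelled mature osteoclasts), with 1 Affymetrix array per day from 5 ng of total RNA. With 1 array per day there is no spread between cultures and no test, so each difference compares single arrays and is not tested against replicate error. No array of a later day without RANKL is among the samples, so time in culture and differentiation cannot be told apart.

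Lysosomes are acidic organelles in which hydrolases take apart glycosaminoglycans, glycolipids, glycoproteins, glycogen, cholesteryl esters and proteins. Most of these enzymes receive a mannose 6-phosphate tag in the Golgi and are carried onward by mannose 6-phosphate receptors, while membrane proteins such as LAMP1 line the organelle. Osteoclasts send lysosome-related vesicles to the bone-facing membrane, where they fuse to form the ruffled border and release acid and enzymes onto bone. Loss of single members causes lysosomal storage diseases, the mucopolysaccharidoses and sphingolipidoses among them.

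The arrays were close in overall level: log2 medians ran between 4.88 and 4.92, and the upper quartiles ran between 7.05 and 7.17. The day labels were checked with osteoclast genes. All 10 osteoclast markers were at least 2-fold higher at day 5 than at day 0, against 6.78% of measured genes. Their mean log2 level was 11.76 at day 5 and 5.67 at day 0. Ctsk, the collagen-degrading protease of bone resorption, was 6.75 log2 units higher. Car2, a carbonic anhydrase that supplies protons, was 6.91 higher, the acid phosphatase gene Acp5 was 5.76 higher and the gelatinase gene Mmp9 5.59 higher. Values below are RMA levels on the log2 scale, and differences are log2 differences of the later day minus the earlier one. Genes were counted as higher or lower only where the arrays stood 2-fold or further apart (1 log2 unit), unless any size is stated. For 500 genes with 2 or more measured rows, the day 5 minus day 0 differences of the 2 brightest rows were compared. They disagreed with an SD of 0.59, or 0.42 for 1 row. The rows share the same arrays, so this SD covers disagreement between rows only. It leaves out error common to all rows of an array and differences between cultures.

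The lysosomal genes were mostly lower after 1 day of RANKL than before it, and most stood higher at day 3 than at day 2. At day 1, 30 of the 33 lay below their day 0 level at any size, against 43.2% of measured genes, with a median difference of -0.37 where the median of all measured genes was 0.00. The 3 above day 0, against 49.1% of measured genes, were the sulfatase gene Arsa and both mannose 6-phosphate receptor genes, M6pr and Igf2r. Few of these differences were large: 2 of 33 were at least 2-fold lower at day 1, against 4.17% of measured genes, and 0 of 33 at least 2-fold higher, against 2.91%. The 2 were Sgsh (-1.08) and Lgmn (-1.31).

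At day 2 the genes lay on both sides of day 0, and few were 2-fold from it. Of the 33, 2 were at least 2-fold higher at day 2 than at day 0 (Arsb and Smpd1), against 5.18% of measured genes, and 4 were at least 2-fold lower (Man2b1, Lipa, Ppt1 and Lgmn), against 5.25%. At any size, 10 of 33 were above day 0 (47.2% of measured genes) and 23 below (43.4%), with a median of -0.14. With the arrays centred on the median level of 12 reference genes (reference-gene centring), the median was -0.39 and 6 genes were at least 2-fold lower. This lowered the difference of every gene by 0.25, although the median difference of the reference genes was -0.01. Shares of measured genes are given as deposited only and do not apply to counts with that centring. With each reference gene first set to its own mean, chosen after seeing the data, 4 were lower and the median was -0.15. Against day 1, 3 of 33 were at least 2-fold higher at day 2 (Arsb, Sgsh and Smpd1), against 2.46% of measured genes, and 0 of 33 lower, against 0.556%. At any size, 20 of 33 were above day 1 (42.8% of measured genes) and 13 below (47.9%), with a median difference of 0.09.

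Between days 2 and 3 nearly the whole set was higher, in small steps. At day 3, 31 of 33 were above day 2 at any size, against 45.5% of measured genes, with a median difference of 0.39. With reference-gene centring, which lowered the difference of every gene by 0.22, 26 were above and 7 below, and the median was 0.17. The 45.5% does not apply to those counts. As deposited, the 2 below, again against 45.5%, were Ids and M6pr. No step reached 2-fold, so 0 of 33 were counted as higher (2.08% of measured genes) and 0 as lower (3.91%). Higher at day 2 than at day 1 and again at day 3 than at day 2 were 20 of 33, against 23.6% of measured genes. At day 3, 5 of 33 were at least 2-fold higher than at day 0 (Arsb, Smpd1, Arsa, Gaa and Igf2r), against 7.29% of measured genes, and 1 was lower (Lgmn), against 7.5%. At any size, 20 of 33 were above day 0 by then (43.6% of measured genes) and 13 below (48.7%), with a median of 0.13. Reference-gene centring turned this round, to 12 above and 21 below with a median of -0.35. It gave 2 genes at least 2-fold higher and 5 lower. That centring lowered the difference of every gene by 0.47, although the median difference of the reference genes was 0.01. With each reference gene first set to its own mean, 20 were again above and 13 below, with a median of 0.13.

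Days 3 and 5 differed little. At day 5, 20 of 33 were above day 3 at any size (45.8% of measured genes) and 11 below (45.0%), with a median of 0.07, and 0 of 33 differed 2-fold in either direction (0.158% of measured genes higher and 0.116% lower). Of the 33 genes, 3 had their lowest value of the 5 arrays at day 0 (27.1% of measured genes), 18 at day 1 (19.5%), 11 at day 2 (15.2%), 1 at day 3 (20.4%) and 0 at day 5 (17.8%). The highest value was on day 0 for 13 (27.4% of measured genes), on day 1 for 1 (24.8%), on day 2 for 0 (13.0%), on day 3 for 11 (18.7%) and on day 5 for 8 (16.2%). In both counts a value shared by several days went to the earliest of them. This can raise the shares of measured genes for early days. A value below day 0 at day 1 together with a day 5 value above day 1 was seen in 27 of 33, against 26.9% of measured genes. A 2-fold difference in any day against day 0 or in any step was seen in 11 of 33, against 21.7%.

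**Figure D1:**
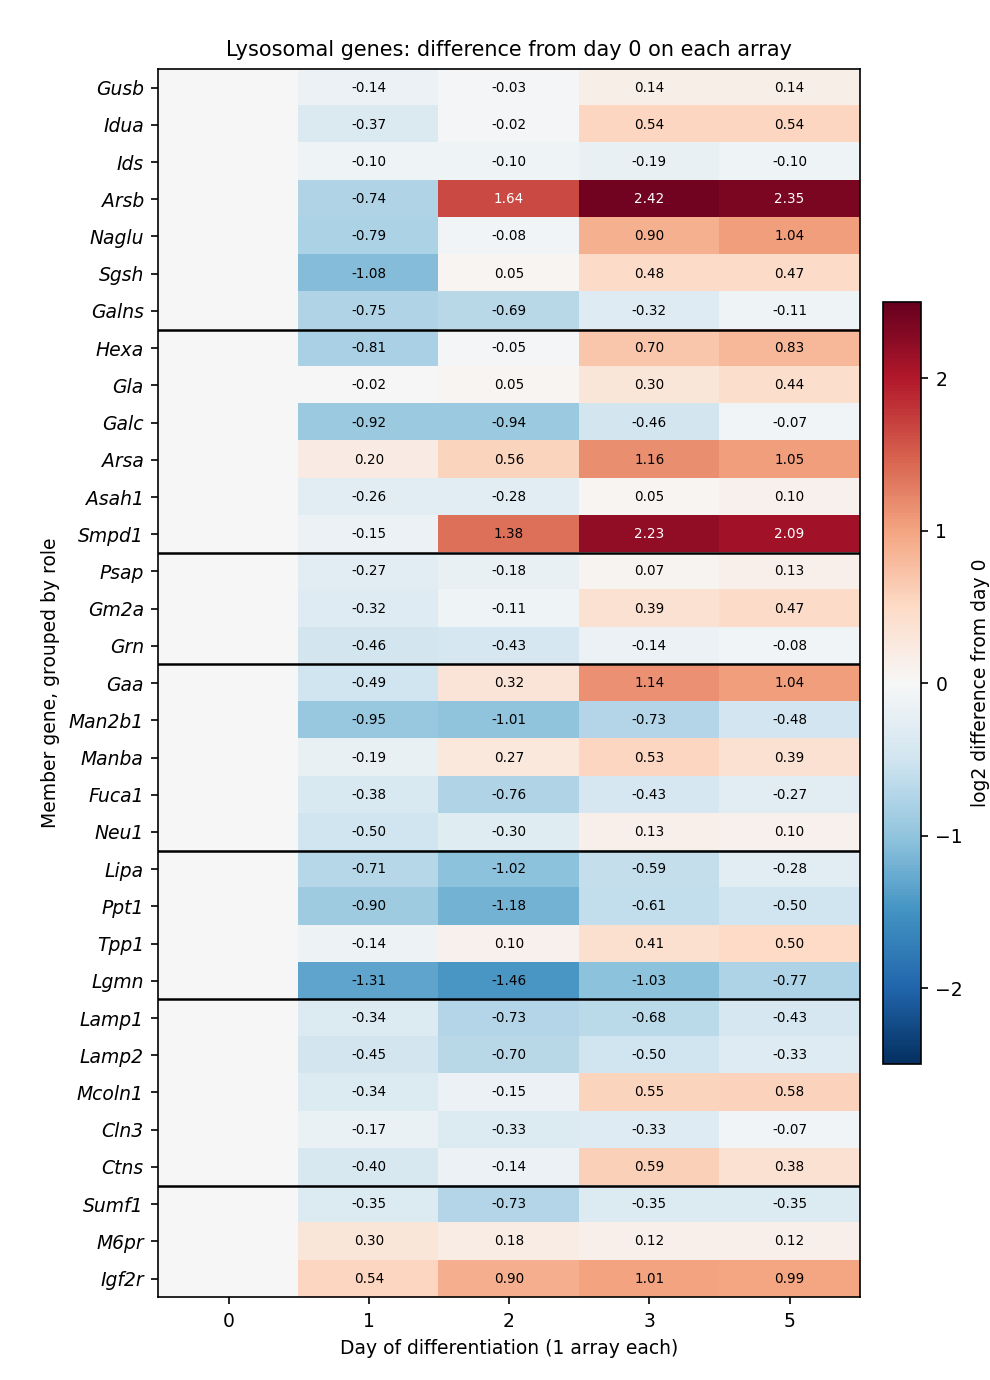
Log2 difference of each of the 33 genes from its day 0 level (colour and printed value) on the arrays of days 1, 2, 3 and 5, with 1 array per day, grouped by role: glycosaminoglycan hydrolases at the top, then sphingolipid hydrolases, activator proteins with progranulin, glycosidases, lipid, thioester and peptide hydrolases, membrane proteins, and Sumf1 with the receptors. The day 1 column is below 0 for 30 of 33 genes, and the day 5 column is led by Arsb (2.35) and Smpd1 (2.09).

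At day 5 the set stood close to its starting level as a whole, with a few enzymes well above it. Of the 33 genes, 20 were above day 0 at any size (42.8% of measured genes) and 13 below (49.2%), with a median of 0.13. At least 2-fold higher were 5 of 33, against 6.78% of measured genes, and 0 of 33 were at least 2-fold lower, against 6.56%. The 5 were Arsb, Smpd1, Arsa, Naglu and Gaa. The last 3 lay just past 2-fold (1.05, 1.04 and 1.04) and Igf2r just short of it (0.99). With reference-gene centring, 2 of 33 were higher (Arsb and Smpd1), 1 lower (Lgmn), and the median was -0.36. That centring lowered the difference of every gene by 0.49, so the shares of measured genes given here do not apply to these counts. With each reference gene first set to its own mean, an alternative chosen after seeing the data, the counts were again 5 and 0 and the median 0.11. Measured from day 1 in place of day 0, 6 of 33 were at least 2-fold higher at day 5 (6.3% of measured genes) and 0 lower (6.73%), with a median of 0.54. The 6 were Arsb, Smpd1, Naglu, Hexa, Sgsh and Gaa. At any size, 29 of 33 were above day 1 at day 5 (44.0% of measured genes) and 3 below (46.5%), which were Ids, Lamp1 and M6pr.

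**Figure D2:**
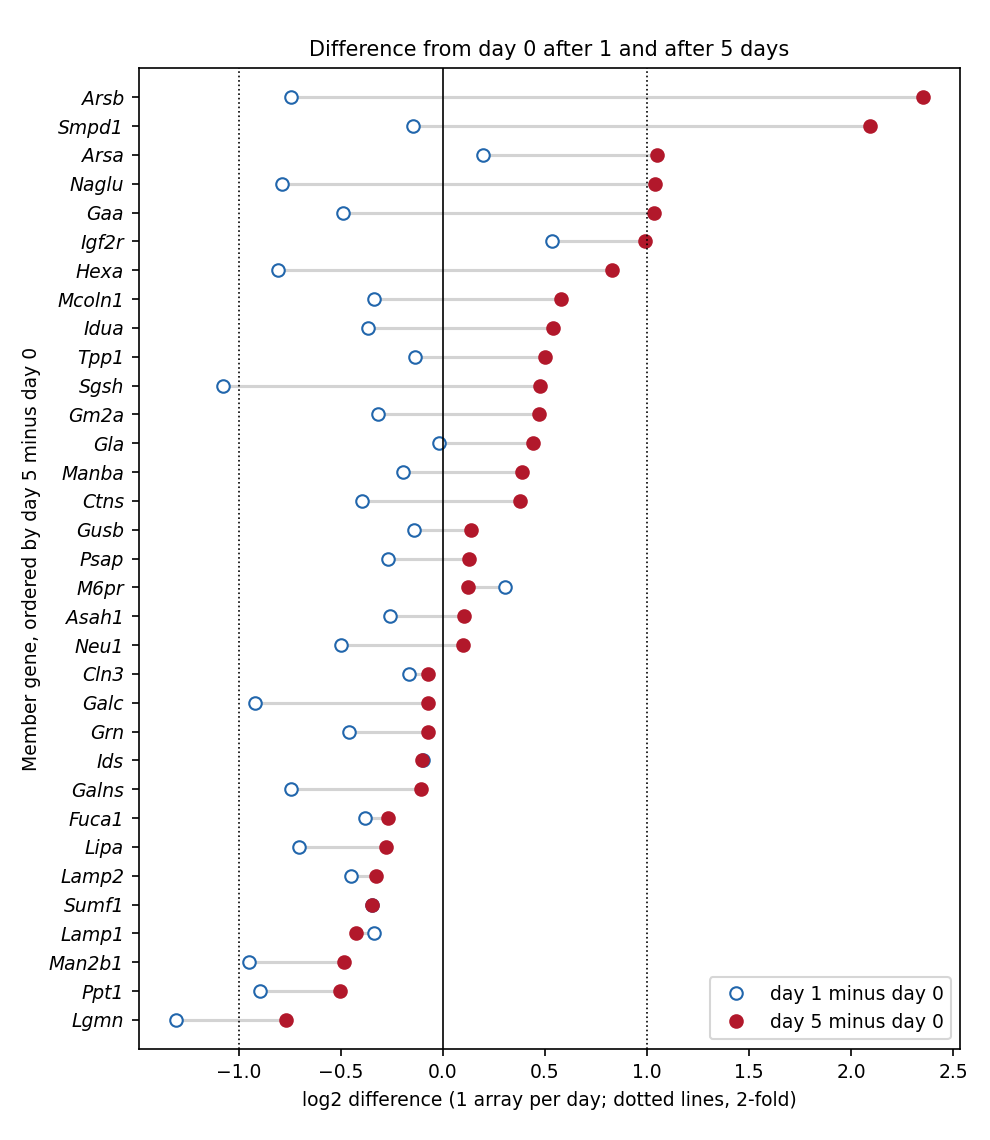
Log2 difference from day 0 at day 1 (open circles) and at day 5 (filled circles) for each of the 33 genes, ordered by the day 5 value, with 1 array per day and dotted lines at 2-fold. The open circles lie left of 0 for 30 of 33 genes, and at day 5 the filled circles range between -0.77 for Lgmn and 2.35 for Arsb.

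The glycosaminoglycan hydrolases held the gene with the largest day 5 difference among the 33. Arsb encodes arylsulfatase B, which takes sulfate off the N-acetylgalactosamine of dermatan and chondroitin sulfate. Its level was 9.90, 9.16, 11.54, 12.32 and 12.25 at days 0, 1, 2, 3 and 5. The arrays of days 2, 3 and 5 all lay above those of days 0 and 1, and the day 5 level was 5.11-fold the day 0 level and 8.56-fold the day 1 level. The other row that names Arsb held 6.21, 5.49, 8.26, 9.70 and 9.80, the same order of days up to day 3, with a larger day 5 minus day 0 difference of 3.59.

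Naglu and Sgsh encode enzymes that act in turn on heparan sulfate, an alpha-N-acetylglucosaminidase and an N-sulfatase. Naglu stood at 9.97, 9.18, 9.90, 10.87 and 11.01, which is 2.05-fold the day 0 level at day 5 and 3.55-fold the day 1 level. Sgsh stood at 8.50, 7.42, 8.56, 8.98 and 8.98, so it was 2.11-fold lower at day 1 than at day 0 and back above it at day 2. Both had their lowest array at day 1. Idua, the alpha-L-iduronidase, was also lowest at day 1, at -0.37 against day 0, and was at 0.54 at day 5. Gusb, the beta-glucuronidase, lay between -0.14 and 0.14 of day 0 throughout; it is itself used as a reference gene and was 1 of the 12 in that list. Ids, the iduronate sulfatase, lay within 0.19 below day 0 on all later arrays, and Galns, the sulfatase of keratan and chondroitin sulfate, was at -0.75 at day 1 and -0.11 at day 5. Over these 7 genes the median was -0.74 at day 1 and 0.47 at day 5, both against day 0.

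Among sphingolipid hydrolases, Smpd1 and Arsa were at least 2-fold higher at day 5 than at day 0. Smpd1, the acid sphingomyelinase, which splits sphingomyelin into ceramide and phosphocholine, had 8.43, 8.28, 9.81, 10.66 and 10.52 at days 0, 1, 2, 3 and 5. Its levels at days 2, 3 and 5 were all above those of days 0 and 1, with a day 5 level 4.26-fold that of day 0. Its other row held 5.49, 5.80, 6.52, 7.21 and 6.84, with a day 5 minus day 0 difference of 1.35 and day 1 above day 0 rather than below. Arsa, arylsulfatase A, which desulfates sulfatide, stood at 8.14, 8.34, 8.70, 9.30 and 9.19. It had its lowest array at day 0 and no dip, and was 2.07-fold higher at day 5 than at day 0.

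Hexa, the alpha chain of the beta-hexosaminidase that degrades GM2 ganglioside, dipped to -0.81 at day 1 and reached 0.83 at day 5, both against day 0, so that day 5 was 3.12-fold above day 1. Galc, the galactosylceramidase, was at -0.92 and -0.94 at days 1 and 2 and at -0.07 at day 5. Gla, the alpha-galactosidase, was within 0.05 of day 0 at days 1 and 2 and at 0.44 at day 5, and Asah1, the acid ceramidase, was at -0.26 at day 1 and 0.10 at day 5. Of the proteins that help these enzymes reach their lipids, none was 2-fold from day 0 on any array. Psap, the precursor of the saposins, was at -0.27 at day 1 and 0.13 at day 5, and Gm2a, the GM2 activator, at -0.32 and 0.47. Grn, progranulin, whose product binds prosaposin, was at -0.46 and -0.08.

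Of the glycosidases of glycogen and glycoproteins, Gaa alone was 2-fold higher at day 5 and Man2b1 alone had a 2-fold lower array. Gaa, the acid alpha-glucosidase of glycogen, had 8.76, 8.27, 9.08, 9.90 and 9.79, a day 5 level 2.05-fold that of day 0 and 2.88-fold that of day 1. Man2b1, the alpha-mannosidase, had 12.12, 11.17, 11.12, 11.39 and 11.64, with day 0 the highest of the 5 arrays and day 2 the lowest (-1.01). Manba, the beta-mannosidase, was at 0.39 at day 5, Neu1, a sialidase, at 0.10, and Fuca1, the alpha-fucosidase, at -0.27 after a low of -0.76 at day 2.

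The hydrolases of lipids, thioesters and peptides were the role group with the lowest day 5 median (-0.39 over 4 genes). Lgmn encodes legumain, an asparaginyl endopeptidase that processes cathepsins. It had 12.18, 10.87, 10.72, 11.15 and 11.41, so every later array lay below day 0, by 2.48-fold at day 1. Lipa, the acid lipase that hydrolyses cholesteryl esters, had 12.54, 11.84, 11.52, 11.95 and 12.26, lowest at day 2 (-1.02). Ppt1, which removes palmitate from proteins, had 10.93, 10.03, 9.75, 10.32 and 10.42, also lowest at day 2 (-1.18). In all of these the day 0 array was the highest of the 5. Tpp1, a tripeptidyl peptidase, differed from them, at -0.14 at day 1 and 0.50 at day 5.

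**Figure D3:**
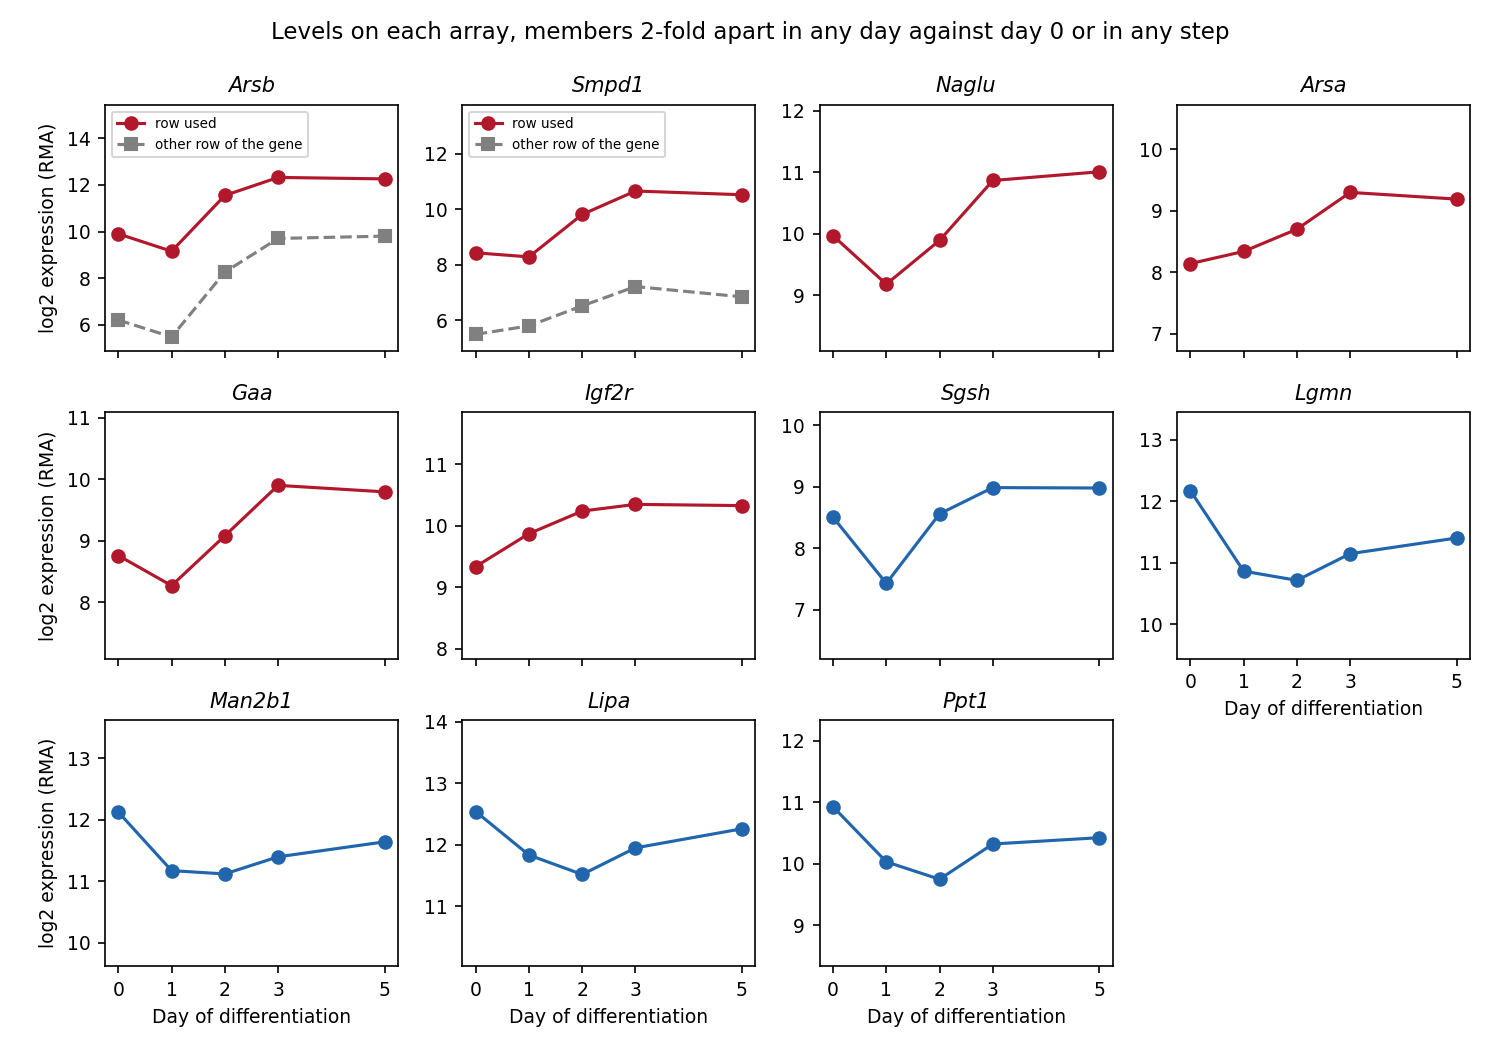
Log2 RMA level (y axis) by day of differentiation (x axis, 1 array per day) for the 11 genes with a 2-fold difference in any day against day 0 or in any step; the scale spans 4 units except for the wider panels of Arsb and Smpd1. Red panels are the 6 genes whose 2-fold differences from day 0 were upward and blue panels the 5 with a downward one, and the grey dashed lines are the other rows of Arsb and Smpd1.

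The membrane proteins split. Lamp1 and Lamp2, the heavily glycosylated proteins that cover the inner face of the lysosomal membrane, were lower than at day 0 on every later array. Lamp1 had 11.97, 11.63, 11.24, 11.29 and 11.54 at days 0, 1, 2, 3 and 5. Lamp2 started at 11.70 and stood at -0.45, -0.70, -0.50 and -0.33 against it at days 1, 2, 3 and 5. Both were lowest at day 2. At day 5 Lamp1 was at -0.43 against day 0, close in size to the SD of 0.42 for 1 row, which leaves out error between arrays. Cln3, the membrane protein affected in Batten disease, kept within 0.33 below day 0 and ended at -0.07. Mcoln1, the calcium-permeable channel TRPML1, was at -0.34 at day 1 and 0.58 at day 5, and Ctns, which exports cystine, at -0.40 and 0.38.

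In the group of enzyme maturation and sorting, both receptor genes were above day 0 at day 1 and Sumf1 was below it. Igf2r, the cation-independent mannose 6-phosphate receptor, which also binds IGF2, had 9.33, 9.87, 10.24, 10.34 and 10.32, with day 0 the lowest of the 5 arrays and day 3 at 1.01. M6pr, the cation-dependent receptor, had 12.03, 12.34, 12.22, 12.16 and 12.16, also lowest at day 0 but highest at day 1 (0.30). Sumf1 encodes the enzyme that turns a cysteine of each sulfatase into the catalytic formylglycine. It had 8.52, 8.17, 7.78, 8.17 and 8.17, with day 0 the highest array, while its client Arsb was highest at day 3. The values of Sumf1 at days 1, 3 and 5 were identical, and so were those of M6pr at days 3 and 5; 9.25% of measured genes had identical values at days 5 and 3.

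Promoter sequence was looked at because many lysosomal genes are known targets of TFEB and TFE3, and osteoclast genes of the related MITF, factors that bind E-boxes with CACGTG at the centre. RefSeq promoters (assembly GRCm38.p6, 250 bases before and 50 after a start) were matched by symbol for 30 of the 33 genes, with 34 promoters among 32851. CACGTG was present in those of 11 of the 30 genes, or 36.7%, against 7.15% of all promoters and 8.91% of protein-coding genes. The longer TCACGTGA, which contains it, was present for 5 genes (Cln3, Gla, Igf2r, Mcoln1 and Sumf1), 16.7% against 0.974% of all promoters and 1.41% of protein-coding genes. The palindrome that extends it by 1 base on each side, a G before and a C after, was present for Cln3 and Igf2r, 6.67% against 0.326% of all promoters and 0.469% of protein-coding genes. TCACATGA, which is contained in none of these, was present for 6 genes, 20% against 0.986% of all promoters and 1.00% of protein-coding genes. Both strands were searched, and a match describes the letters and not a bound site. The stretches of 8 genes are shown with CACGTG in capitals, each ending at or before the start of the gene: 4 that reached 2-fold upward, 2 that reached 2-fold downward at day 1, and 2 membrane proteins.
Naglu (chr11:101070001-101070046, + strand): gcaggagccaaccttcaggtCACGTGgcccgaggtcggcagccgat
Gaa (chr11:119267803-119267848, + strand): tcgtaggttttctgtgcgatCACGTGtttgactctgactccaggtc
Arsa (chr15:89477425-89477460, - strand): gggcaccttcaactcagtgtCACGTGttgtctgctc
Igf2r (chr17:12769707-12769774, - strand): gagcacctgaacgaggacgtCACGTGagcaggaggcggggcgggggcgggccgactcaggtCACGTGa
Sgsh (chr11:119355514-119355559, - strand): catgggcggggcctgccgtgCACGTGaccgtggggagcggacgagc
Lgmn (chr12:102439116-102439161, - strand): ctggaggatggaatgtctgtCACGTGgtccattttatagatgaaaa
Lamp1 (chr8:13159080-13159160, + strand): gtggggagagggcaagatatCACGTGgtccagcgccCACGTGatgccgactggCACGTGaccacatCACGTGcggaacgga
Mcoln1 (chr8:3500428-3500499, + strand): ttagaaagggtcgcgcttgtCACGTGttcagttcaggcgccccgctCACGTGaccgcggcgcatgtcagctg

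Lamp1 held 4 copies in this stretch, between 61 and 15 bases before the start, and Igf2r and Mcoln1 held 2 each. The 11 genes with CACGTG had a median day 5 minus day 0 difference of 0.47 and the 19 others one of 0.13, and at day 1 the medians were -0.34 and -0.40. For TCACGTGA the day 5 medians were 0.44 with it and 0.14 without, and for its longer palindrome 0.46 and 0.26. For TCACATGA the order was the other way, 0.18 with it and 0.26 without. These are descriptions of few genes, and the differences were not tested. The letters CACGTG were found neither for Arsb nor for Smpd1, the genes with the largest day 5 differences, in these windows. Of the factors, Mitf was at 9.66, 9.83, 10.55, 9.72 and 9.70 over the 5 days, highest at day 2. Tfe3 was at -0.44, Tfeb at 0.03 and Tfec at 0.33 at day 5 against day 0. Tfeb lay between 5.58 and 5.67 on all 5 arrays, not far above the filter at 4.89, where differences can be understated.

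Other lysosomal enzymes and soluble proteins were also lower at day 1 by their median. Of 17 measured beyond the 33, 4 were at least 2-fold lower at day 1 than at day 0 (4.17% of measured genes) and 0 higher (2.91%), with a median of -0.35. At day 5 there were 1 higher (6.78% of measured genes) and 0 lower (6.56%) against day 0, with a median of 0.22. The 4 were Hgsnat, Arsg, Smpdl3a (-1.13) and Pla2g15 (-1.04). Hgsnat, the acetyltransferase of heparan sulfate degradation, was at 11.60, 9.92, 10.68, 11.71 and 11.89 over the 5 days. Arsg, another sulfatase, was at 5.67, 4.52, 5.67, 6.28 and 6.59. Its day 1 value lay below the filter level of 4.89, so its differences rest on low values. The higher one was Hyal2, a hyaluronidase (1.28), followed by Arsg (0.92), the sterol-binding Npc2 (0.74) and Ctsa (0.71). At the other end were Ggh (-0.46), Pla2g15 (-0.31), Plbd1 (-0.30) and Smpdl3a (-0.21). For 10 of the 27 genes on that list no row was analysed here.

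Membrane proteins outside the 33 reached further at day 5. Of 27 measured, 5 were at least 2-fold higher than at day 0 (6.78% of measured genes) and 2 lower (6.56%), with a median of 0.15. At day 1, 1 was lower (4.17% of measured genes) and 0 higher (2.91%), with a median of -0.31. Laptm4b was at 7.37, 8.05, 9.54, 9.85 and 9.97, a difference of 2.60, and Clcn7, the chloride-proton exchanger of the lysosome and ruffled border, at 9.50, 9.77, 10.89, 11.68 and 11.69 (2.19). Slc37a2 (1.70), a sugar-phosphate transporter family member, and Mfsd12 (1.54) came next, with Abca2 (1.44) the other one past 2-fold. Lower were Slc36a1, a lysosomal amino acid transporter (-1.20), and Slc11a1, the NRAMP metal transporter of macrophage phagosomes (-1.17), then Scarb2 (-0.55) and Clcn6 (-0.41).

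Genes that tag and sort lysosomal enzymes gave single large differences in a list with a median of -0.12 at day 5. Of 20 measured, 2 were at least 2-fold higher (6.78% of measured genes) and 1 lower (6.56%). Gnptab, subunits of the phosphotransferase that begins the mannose 6-phosphate tag, was at 9.87, 9.74, 11.06, 11.83 and 11.85, a difference of 1.98, with the same arrays high as for Arsb. Gga2, an adaptor that binds the receptors at the Golgi, was 1.64 higher at day 5, of which 1.33 was present at day 1. Ap3d1 and Gga1 followed at 0.38 and 0.35. The clathrin adaptor subunit Ap1s2 was lower (-1.17), and Sort1, sortilin, which carries some enzymes without the tag, was at 9.39, 7.41, 7.01, 8.10 and 8.44 (-0.95). Ap1b1 was at -0.51 and Sumf2 at -0.42.

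Set beside related gene groups, the 33 genes lay near the cathepsins and below the proton pump at day 5. Among 11 measured cathepsins other than cathepsin K, 1 was at least 2-fold higher at day 5 than at day 0, Ctsf (1.86), and 1 lower, Ctsc (-1.54), with a median of -0.04 and a day 1 median of -0.31. After Ctsf came Ctsa (0.71), which was also on the list of other enzymes and soluble proteins, then Ctsz (0.35) and Ctso (0.17). After Ctsc came Ctsl (-0.79), Ctsh (-0.59) and Ctss (-0.23). Among 17 measured subunits of the V-ATPase, the pump that acidifies lysosomes and the space under the ruffled border, 10 were higher and 1 lower at day 5. Their median was 1.16 at day 5 and 0.17 at day 1. Atp6v0d2 led (5.43), followed by Atp6v1d (1.96), Atp6v1c1 (1.61) and Tcirg1 (1.51), while Atp6v0a1 was at -1.10, Atp6v0a2 at 0.10, Atp6v1f at 0.20 and Atp6ap1 at 0.32. A list of 5 resorption genes held Ctsk, Acp5, Mmp9, Mmp14 and Car2. All 5 were at least 2-fold higher at both days, against 6.78% of measured genes at day 5 and 2.91% at day 1. Mmp14 (3.76) was the lowest at day 5, and the medians were 5.76 at day 5 and 3.46 at day 1. Of 12 measured reference genes 1 was higher at day 5, Sdha (1.10), and 0 lower; next were Polr2a (0.48), Rplp0 (0.17) and Gusb (0.14), and at the other end Hprt (-0.59), Actb (-0.41), Gapdh (-0.12) and B2m (-0.09). Without replicates the differences between these lists were not tested.

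**Figure D4:**
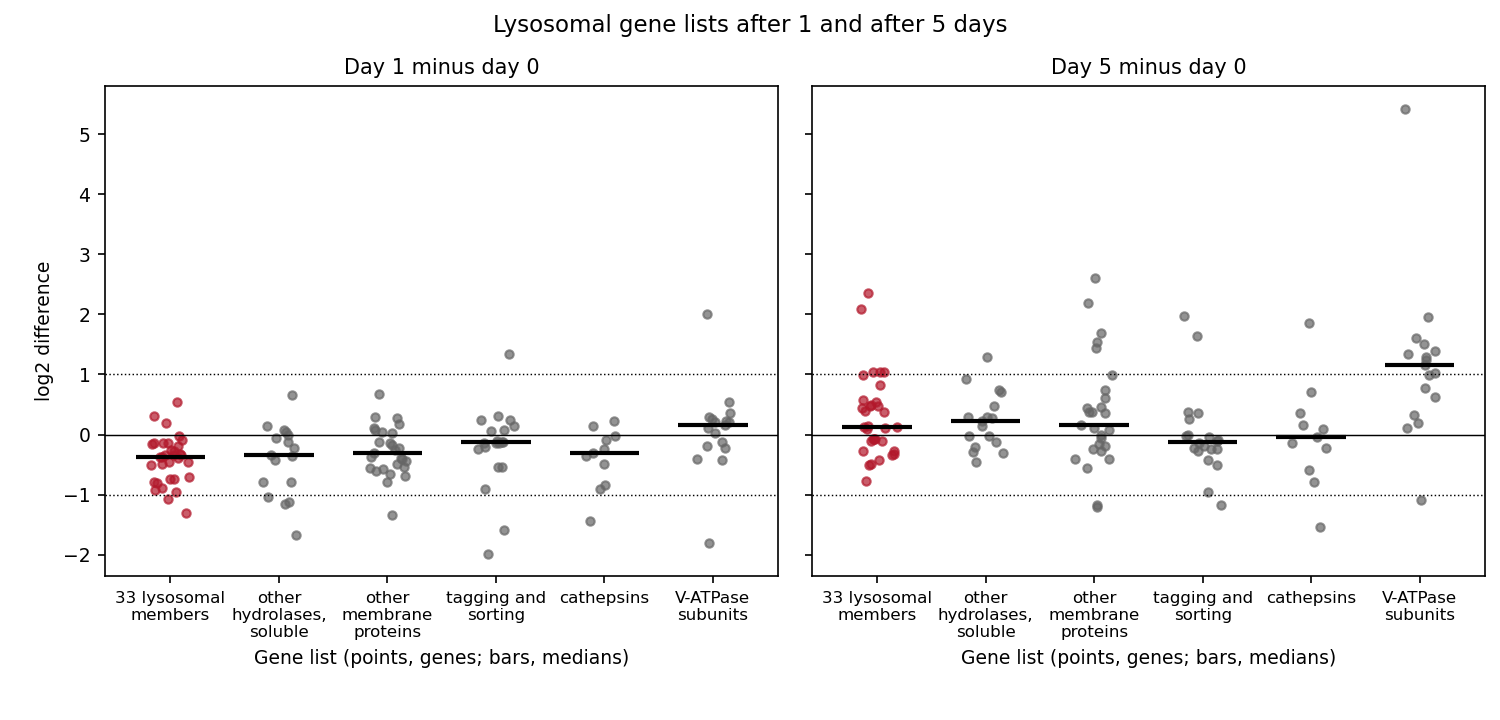
Log2 difference from day 0 at day 1 (left) and day 5 (right) for the measured genes of each list, with 1 array per day, points for genes, bars for list medians and dotted lines at 2-fold. The 33 genes (red) have medians of -0.37 at day 1 and 0.13 at day 5, the cathepsins -0.31 and -0.04, and the V-ATPase subunits 0.17 and 1.16.

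Macrophage markers were lower at day 1, and higher at day 3 than at day 2, as most of the lysosomal genes were. Between days 1 and 2 the medians of the markers and of the lysosomal genes had opposite signs. Over 6 macrophage markers the mean log2 level was 11.30, 9.74, 9.45, 10.19 and 10.45 at days 0, 1, 2, 3 and 5, lowest at day 2 as for 11 of the 33 genes, where 18 of the 33 were lowest at day 1. At day 2 against day 1, 4 of the 6 markers were lower at any size (47.9% of measured genes), with a median of -0.44. Of the 33 genes, 20 were higher (42.8% of measured genes), with a median of 0.09. At day 3 against day 2 all 6 markers were higher (median 0.55), beside 31 of the 33 genes (median 0.39) and 45.5% of measured genes. For day 5 against day 1 these were 5 of the 6 markers (median 0.45), 29 of the 33 genes (median 0.54) and 44.0%. At day 1 against day 0 all 6 markers were lower at any size (43.2% of measured genes) and 3 were at least 2-fold lower (4.17%). The 3 were Fcgr1 (-3.61), Mertk (-2.83) and Adgre1 (-1.24), while Csf1r was at -0.79. Over 8 neutrophil markers the mean level was 6.85, 6.97, 6.09, 6.31 and 5.78. Of 7 measured, 4 were at least 2-fold lower at day 5 than at day 0, against 6.56% of measured genes. None of the markers of T, B or erythroid cells with a row (7 in all) passed the filter on low values, and neither did 3 of the 5 stromal markers with a row. Of the 2 measured stromal markers, 1 was at least 2-fold higher and 0 lower at day 1 and at day 5 against day 0. Of measured genes, 2.91% were higher and 4.17% lower at day 1, and 6.78% higher and 6.56% lower at day 5. Dcn was at 5.20, 8.45, 8.44, 7.99 and 7.13 over the 5 days, and Col1a1 at 5.19, 5.10, 5.06, 5.24 and 5.38. In bulk RNA, fewer cells of a type and less RNA per cell cannot be told apart, and the part of these markers in the lysosomal values was not tested.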

How the data were processed

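Trizol RNA was amplified and labelled with biotin using the Affymetrix WT Pico kit, per the labels' protocols. The authors deposited log2 values. The submitters' processing notes name RMA, oligo and R 3.4.0. Quantile normalisation in RMA hides a shift of all genes, and background handling understates differences of low genes. The genome build was not given in the sources used here.

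Of 41345 rows, 23521 named 1 gene and 1814 several, and 16010 were unnamed here. The brightest row stood for a gene. Differences between arrays were counted at 2-fold among genes at or above the median row mean. The counting was tested on simulated data. No test was run, since each day has 1 array. The 33 genes, the lists and the settings were chosen with earlier results of these data known. Values on all days are given for genes 2-fold apart in any day against day 0 or in any step, for Lamp1, Lamp2, Sumf1, M6pr and Igf2r, and for single genes picked after their values were seen. Of each further list the 4 largest day 5 differences in each direction are named. Python 3.11.15, numpy 2.4.6, pandas 2.3.3 and matplotlib 3.10.9 were used.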

Additional observations from a re-analysis of the deposited data

How the results depend on the processing

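Day 5 against day 0: with arrays centred on reference genes, by the median of their levels, 2 of the 33 genes were higher and 1 lower, and the median was -0.36. That median level was 0.49 higher at day 5 than at day 0, although the median difference of the 12 reference genes was 0.01. Counting at 1.5-fold gave 1 lower gene, and so did day 3 in place of day 5. No share of measured genes was counted at 1.5-fold or with reference-gene centring. Such counts, here and below, therefore cannot be set against all genes. The mean in place of the median was 0.30, and the median against day 1 in place of day 0 was 0.54. Day 1 against day 0: reference-gene centring gave 7 lower genes and a median of -0.58, and counting at 1.5-fold gave 10 lower. Day 2 in place of day 1 gave 2 higher, 4 lower and a median of -0.14. Day 5 against day 1: the median was 0.26 with reference-gene centring and 0.43 with day 3 in place of day 5, the mean was 0.72, and 15 genes were higher at 1.5-fold. The level filter, centring on all measured genes and the mean of a gene's rows left every one of these counts within 1.5 times and each median within 0.1, as did reference genes each set to their own mean first, an alternative chosen after seeing the data. Averaging a gene's rows could change Arsb and Smpd1 alone, since no other of the 33 genes had a second row. It moved the day 5 minus day 0 difference of Arsb by more than 0.42 (2.35 to 2.97) and that of Smpd1 by less (2.09 to 1.72). No paired analysis was possible because each day has 1 array. The mean level of each of the 33 genes was above 7.11, the 75th percentile of all rows. Changing the level filter could therefore remove none of them. The number of arrays limits the precision.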

Other observations

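Some enzymes of heparan sulfate breakdown, Idua, Ids, Sgsh, Hgsnat, Naglu and Gusb, were grouped by substrate. The list is not complete. They were all below day 0 at day 1, with log2 differences between -0.10 for Ids and -1.67 for Hgsnat. All but Ids were above day 0 at day 5 as deposited. Of the named genes, Idua and Naglu alone were above it with reference-gene centring, which lowered the difference of every gene by 0.49. This grouping was made after the values were seen and supports nothing beyond them.

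Among the sulfatases, Arsb (2.35), Arsa (1.05) and Arsg (0.92, from low values) were highest at day 5 against day 0. Sgsh was at 0.47, and Arsk (-0.02), Ids (-0.10) and Galns (-0.11) were near 0. The activating enzyme Sumf1 and its relative Sumf2 were at -0.35 and -0.42. The grouping was again made after the values were seen.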
